A study of Oryza sativa Japonica Group with 15 samples.

Results

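The phenylalanine ammonia-lyase (PAL) genes of rice were followed in the roots of seedlings whose leaves had been sprayed with resistance inducers. The family was taken as 7 rows of the deposited table, Os02g0626100 (PAL1), Os02g0626400 (PAL2), Os02g0626600 (PAL3), Os02g0627100 (PAL4), Os04g0518100 (PAL5), Os04g0518400 (PAL6) and Os05g0427400 (PAL7), out of 36747 features. All 7 had a mean over the libraries of 5 or more normalised reads, the filter that left 18316 genes to test. The rows were picked by identifier, and the number in each name is the one used with that identifier here. By their identifiers PAL1 to PAL4 lie on chromosome 2, PAL5 and PAL6 on chromosome 4 and PAL7 on chromosome 5.

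The plants were Oryza sativa Japonica Group, cultivar Kitaake, and roots were taken 14 days after transplantation. Each of the 5 groups had 3 libraries, and a library was made from 4 plants whose roots were pooled. PA2x plants received piperonylic acid (300 µM) on days 7 and 13 and PA1x plants piperonylic acid (300 µM) on day 13. ASM plants received acibenzolar-S-methyl (250 µM), also known as BTH, on day 13, BABA plants R,S-beta-aminobutyric acid (3.5 mM) on day 13, and mock plants a mock spray on day 13, with spray solutions containing 0.1% Tween 20. No mock group was sprayed on both days, so in comparisons of PA2x with mock the compound and the additional spraying cannot be told apart. The PA1x, ASM and BABA plants were also sprayed on day 13 only. In comparisons of PA2x with these groups, the spraying on day 7 and the compound it carried cannot be told apart either. The compounds were used at different doses. Spraying was on leaves and measurement in roots, and fewer cells of a type and less RNA per cell cannot be told apart in such bulk samples.

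PAL removes ammonia from phenylalanine and yields cinnamic acid, which opens the phenylpropanoid pathway to lignin, flavonoids and, by one route, salicylic acid. Cinnamate 4-hydroxylase (C4H) takes cinnamic acid on to coumaric acid, and 4-coumarate ligase (4CL) activates coumaric acid as its coenzyme A ester. Piperonylic acid is an inhibitor of C4H. Acibenzolar-S-methyl acts in plants in the place of salicylic acid, and beta-aminobutyric acid is a non-protein amino acid that primes defence. In grasses PAL genes form a small family with several copies side by side, and they are known to be induced by pathogens and wounding.

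The libraries were 3′-end libraries, in which a transcript gives reads from its 3′ end, so counts were not divided by transcript length. Recovered totals were 4851344 to 6815702 reads in PA2x, 6576300 to 8364583 in PA1x, 6066946 to 6911751 in ASM, 4130194 to 6717016 in BABA and 7392515 to 9480830 in mock libraries. Of the marker lists, 4 root genes summed to 17872 to 27385 normalised reads in PA2x, 25403 to 31728 in PA1x, 13067 to 24343 in ASM, 24905 to 29598 in BABA and 24346 to 29887 in mock libraries. The 6 leaf genes (small subunits of Rubisco and light-harvesting proteins) summed to at most 322 in any library. The root list was thus lower in every ASM library than in any mock library, though by little between the nearest (24343 in ASM and 24346 in mock). It also reached below every mock library in PA2x, down to 17872. Its part in the results for ASM and PA2x was not tested. PAL genes are alike in sequence, and how reads that match several genes were treated is not given in the sources used here. The values of close copies may therefore share reads and are uncertain to that extent.

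PAL1 dominated the family in every group. It held 73.9% ± 2.67 of the summed normalised PAL reads in PA2x, 85.2% ± 0.519 in PA1x, 70.5% ± 2.83 in ASM, 73.6% ± 3.17 in BABA and 78.6% ± 3.14 in mock roots (mean ± SD, n = 3). The sum over the 7 genes was 50337 ± 1940 normalised reads in PA2x, 45634 ± 1788 in PA1x, 52822 ± 2203 in ASM, 48043 ± 2623 in BABA and 43474 ± 1066 in mock roots, which is at most 0.807% of a library. The share held by PAL1 thus stood highest in PA1x roots. The lowest PA1x library was at 84.9% and the highest library of the other groups, in mock, at 81.3%.

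Over the 5 groups 5 of the 7 genes varied at an adjusted p under 0.05 and PAL1 and PAL5 did not (limma's moderated F test, Benjamini-Hochberg over 18316 genes, of which 12.2% passed). The adjusted p of the F test was 5.34e-06 for PAL4, 1.82e-05 for PAL6, 2.98e-05 for PAL3, 0.0023 for PAL2 and 0.0194 for PAL7, against 0.417 for PAL5 and 0.854 for PAL1. PAL2, PAL3, PAL4, PAL6 and PAL7 are called the variable PAL genes below, a group set by this test. Their lowest group mean was in PA1x and their highest in ASM.

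**Figure D1:**
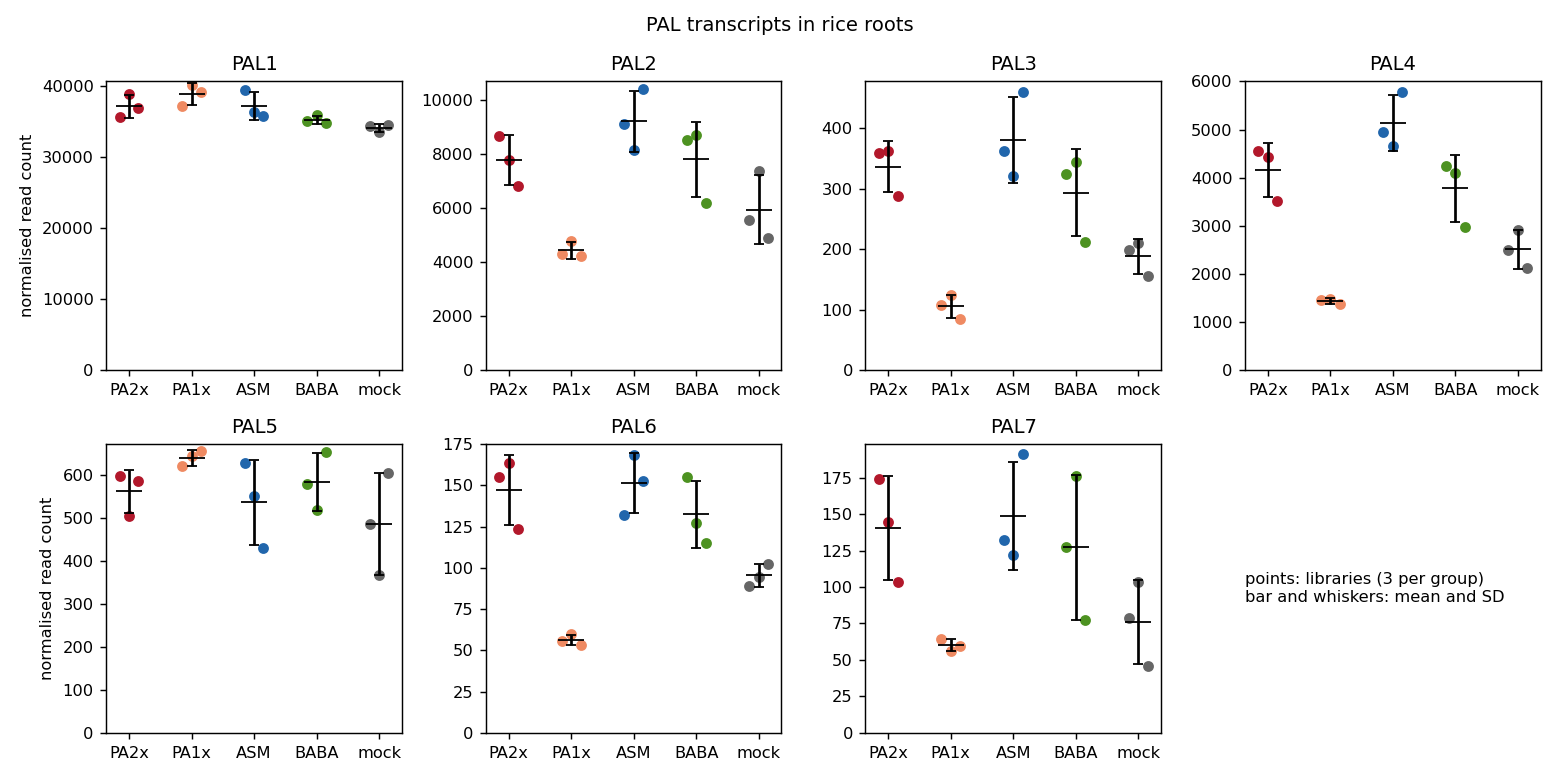
Normalised read counts of the 7 PAL genes (linear axes from 0) in PA2x, PA1x, ASM, BABA and mock roots, with 3 libraries per group as points and the group mean and SD as bar and whiskers. In PAL2, PAL3, PAL4 and PAL6 the 3 PA1x libraries sit below every other library, in PAL2 by little, whereas PAL1 differs little between groups on its axis.

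PAL4, the third most abundant of the family, had 4543, 4431 and 3509 normalised reads in PA2x, 1468, 1481 and 1372 in PA1x, 4952, 4665 and 5786 in ASM, 4247, 4105 and 2982 in BABA and 2491, 2920.0 and 2121 in mock libraries. Every PA1x library lay below every mock library, and every PA2x, ASM and BABA library above every mock library. From high to low the means ran ASM, PA2x, BABA, mock, PA1x. Of the neighbours in this order, PA1x and mock differed beyond their spread (adjusted p = 0.00749). PA2x and ASM, PA2x and BABA, and BABA and mock did not pass (adjusted p = 0.459, 0.845 and 0.146).

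PAL3 was a far less abundant transcript, with 359, 362 and 288 normalised reads in PA2x, 107, 124 and 85.1 in PA1x, 362, 322 and 459 in ASM, 324, 345 and 212 in BABA and 199.5, 210.1 and 156 in mock libraries. PAL6, on chromosome 4, had 155, 163 and 123 normalised reads in PA2x, 55.6, 59.8 and 53.4 in PA1x, 132, 168 and 153 in ASM, 155, 127 and 115 in BABA and 89.0, 94.6 and 102 in mock libraries. Both genes had the order of means of PAL4, with PA1x libraries below and PA2x, ASM and BABA libraries above all mock libraries. Of the neighbours, PA1x and mock passed the test (adjusted p = 0.0229 for PAL3 and 0.00729 for PAL6). The other neighbours did not, with adjusted p of 0.234 to 0.823 for PAL3 and 0.233 to 0.952 for PAL6.

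PAL2, the second most abundant of the family, had 8695, 7797 and 6839 normalised reads in PA2x, 4290.4, 4787 and 4247 in PA1x, 9128, 8155 and 10408 in ASM, 8527, 8715 and 6201 in BABA and 5583, 7367 and 4898 in mock libraries. Its means ran ASM, BABA, PA2x, mock, PA1x, and no neighbours in that order passed (adjusted p 0.305 to 0.996). PAL7, on chromosome 5, had 174, 144 and 103 normalised reads in PA2x, 64.4, 56.1 and 59.7 in PA1x, 132, 122 and 191 in ASM, 127, 176 and 77.5 in BABA and 79.1, 103 and 45.7 in mock libraries. PAL7 spread more within its groups than the other variable PAL genes did (SE of a log2 fold change 0.30, against 0.15 to 0.20). Its neighbours in the order ASM, PA2x, BABA, mock, PA1x did not pass (adjusted p 0.396 to 0.955).

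PAL1 had 35700.5, 38928 and 37006 normalised reads in PA2x, 37228, 40258 and 39182 in PA1x, 39466, 36465 and 35785 in ASM, 35158, 35969 and 34810.0 in BABA and 34416, 33536 and 34550.3 in mock libraries. Each library of the 4 inducer groups lay above each mock library, yet by little. The means were 1.09 times mock in PA2x, 1.14 times in PA1x, 1.09 times in ASM and 1.03 times in BABA, and in no comparison did PAL1 pass. Neighbours in its order of means, PA1x, ASM, PA2x, BABA, mock, had adjusted p of 0.827 to 0.999. PAL5, the neighbour of PAL6, had means of 563 ± 49.9 normalised reads in PA2x, 641 ± 18.3 in PA1x, 538 ± 99.1 in ASM, 585 ± 67.8 in BABA and 487 ± 119 in mock roots (n = 3 each). PA1x was its highest group by the mean, where the variable PAL genes had their lowest. Its neighbours in the order of means overlapped and did not pass (adjusted p 0.702 to 0.954).

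Against mock, 2 sprays of piperonylic acid were followed by a higher level of PAL4, the 1 member to pass. Of the 18316 genes 0.928% passed, 0.764% as higher and 0.164% as lower. That share depended on single libraries: the 170 genes became 68 without PA2x replicate 1, 43 without PA2x replicate 2, 30 without mock replicate 1 and 94 without mock replicate 3. PAL4 averaged 4161 ± 568 normalised reads in PA2x and 2511 ± 399.9 in mock roots, a log2 fold change of 0.73 (SE 0.15, 95% interval 0.40 to 1.06, adjusted p = 0.0321; limma on log2(value + 1), a scale that understates changes of low genes). PAL3 (0.84, adjusted p = 0.0569) and PAL6 (0.61, adjusted p = 0.0619) had groups that did not overlap and missed the threshold, and PAL7 (0.92, adjusted p = 0.19) and PAL2 (0.40, adjusted p = 0.349) had overlapping groups. Of the 7 members, PAL1, PAL3, PAL4 and PAL6 did not overlap mock, 4 in all, against 15.1% of all tested genes. The median log2 fold change was 0.61 over the members and -0.0041 over all tested genes. The call of PAL4 ended when PA2x replicate 1 or 2, any 1 PA1x replicate or mock replicate 1 or 3 was left out (adjusted p 0.0519 to 0.137), when only the PA2x and mock libraries were fitted (0.147) and when no filter on low values was set (0.0547). PAL3 passed when PA2x replicate 3 or BABA replicate 3 was left out (0.045 and 0.0227), and PAL6 when either of those or ASM replicate 1 was (0.0298, 0.04998 and 0.0466). With DESeq2 both PAL3 (adjusted p = 0.00536) and PAL6 (0.0187) passed.

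A single spray of piperonylic acid was followed by lower levels of PAL3, PAL4 and PAL6, and no member passed as higher. Of all tested genes 3.53% passed, 3.13% as lower and 0.399% as higher. These 646 genes became 315 to 373 with any 1 PA1x replicate left out, 406 without mock replicate 1 and 340 without mock replicate 2. PAL3 averaged 105 ± 19.5 normalised reads in PA1x and 189 ± 28.7 in mock roots, which is 0.559 times mock (95% interval of the log2 fold change -1.25 to -0.42). PAL4 averaged 1440.5 ± 59.4 in PA1x and 2511 ± 399.9 in mock roots, 0.574 times mock (-1.12 to -0.46). PAL6 averaged 56.2 ± 3.22 in PA1x and 95.4 ± 6.77 in mock roots, 0.59 times mock (-1.06 to -0.44). PAL2 had a log2 fold change of -0.40 (adjusted p = 0.305) and PAL7 of -0.26 (adjusted p = 0.854), while PAL5 stood at 0.43 (95% interval 0.08 to 0.77, adjusted p = 0.242) and PAL1 at 0.19 (adjusted p = 0.722). Groups did not overlap for 6 members, 4 of them lower and PAL1 and PAL5 higher, against 21.1% of tested genes. The members' median was -0.40, beside -0.003 over all tested genes. The call of PAL3 ended when PA1x replicate 1 (adjusted p = 0.0781) or 3 (0.142) or mock replicate 1 (0.101) or 2 (0.111) was left out.

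With ASM 4 members rose, PAL2, PAL3, PAL4 and PAL6, and none fell. Of all tested genes 4.53% passed, 3.28% as higher and 1.26% as lower. The 830 genes became 400 without ASM replicate 3, 367 without mock replicate 1 and 530 without mock replicate 3. Without ASM replicate 1 they split into 477 higher and 401 lower, in place of 600 and 230. PAL4 averaged 5135 ± 582 normalised reads in ASM and 2511 ± 399.9 in mock roots, a log2 fold change of 1.04 (95% interval 0.71 to 1.36, adjusted p = 0.000959), and PAL3 381 ± 70.8 in ASM and 189 ± 28.7 in mock roots (1.01, 0.59 to 1.42, adjusted p = 0.00652). The rises of PAL2 and PAL6 were smaller, 1.55-fold and 1.59-fold. PAL7, at 148 ± 37.1 in ASM and 76.0 ± 28.9 in mock roots, had a log2 fold change like that of PAL3 (1.00) with a wider interval, 0.36 to 1.65, and did not pass (adjusted p = 0.0748), whereas with DESeq2 it did (0.0362). Over all tested genes DESeq2 passed 1008 in this comparison, beside 830 with limma. The median was 0.65 over the members and -0.014 over all tested genes, and 6 members did not overlap mock against 19.8% of tested genes. The call of PAL2 ended when ASM replicate 1 or 3, mock replicate 1 or 3 or any 1 PA1x replicate was left out (adjusted p 0.055 to 0.169) or no filter was set (0.0768), and that of PAL6 when ASM replicate 2 or 3 or mock replicate 1 was (0.066 to 0.089). With only the ASM and mock libraries fitted PAL2 and PAL6 missed the threshold (0.122 and 0.0512), and PAL7 passed when mock replicate 2 (0.0311) or BABA replicate 3 (0.0413) was left out.

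With BABA no member passed with limma, and 5 of the 7, the variable PAL genes, had an unadjusted p under 0.05. Of the 18316 tested genes 1893 had an unadjusted p under 0.05 with limma. By edgeR 0 members passed and by DESeq2 1, PAL4. With limma 0.251% of all tested genes passed, 0.218% as higher and 0.0328% as lower. These 46 genes became 9 and 5 without BABA replicate 1 or 2, 2 and 21 without mock replicate 1 or 2, and 29 without PA1x replicate 3. They became 98 without BABA replicate 3, 115 without ASM replicate 1 and 87 without PA2x replicate 3. All 7 log2 fold changes were positive, with a median of 0.46 beside -0.0093 over all tested genes, and 4 members did not overlap mock against 14.9% of tested genes. PAL7 had the largest log2 fold change (0.73, 95% interval 0.09 to 1.38, adjusted p = 0.396). PAL4 was nearest to the threshold, at 3778 ± 693 normalised reads in BABA and 2511 ± 399.9 in mock roots (0.58, 95% interval 0.26 to 0.91, adjusted p = 0.146), and it passed when BABA replicate 3 was left out (0.0374). The 4 comparisons with mock share the mock libraries, so their values are not independent of each other.

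**Figure D2:**
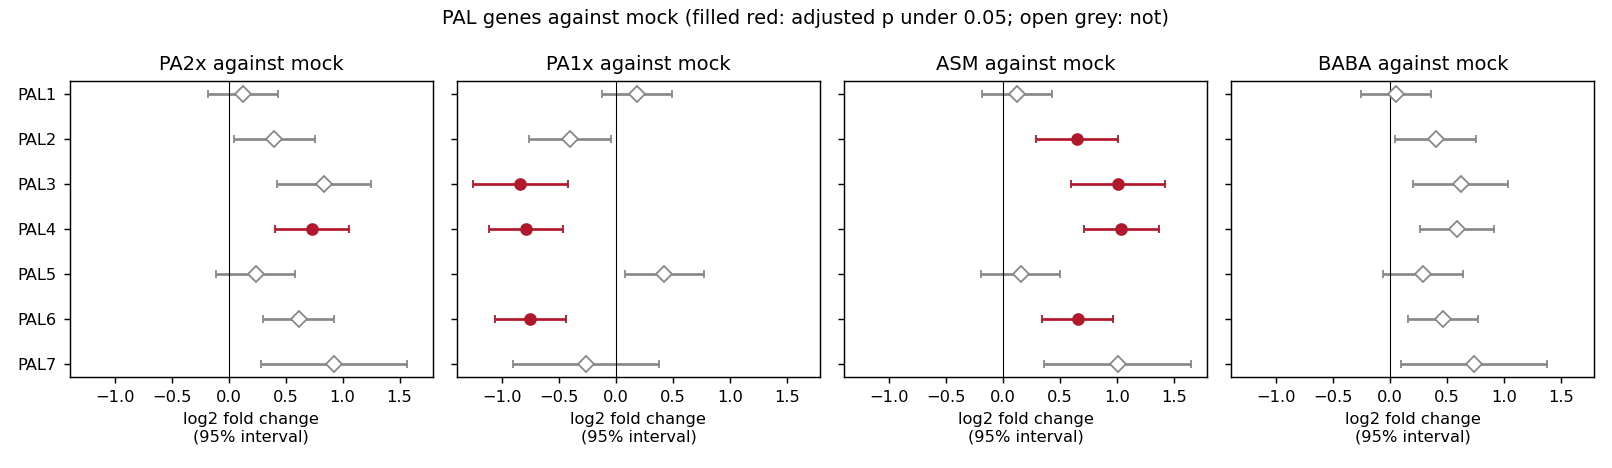
Log2 fold changes of the 7 PAL genes against mock with 95% intervals, for PA2x, PA1x, ASM and BABA; filled red circles have an adjusted p under 0.05 and open grey diamonds do not. The 5 variable PAL genes lie below 0 in PA1x and above 0 in the other panels, with the PA1x interval of PAL7 including 0. The intervals of PAL1 include 0 in each panel.

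Between 2 sprays and 1 spray of piperonylic acid the variable PAL genes differed and PAL1 and PAL5 did not pass. All 5 were higher in PA2x, when 11.3% of the 18316 genes passed, 8.31% as higher and 2.96% as lower. PAL3 was 3.19 times as high in PA2x as in PA1x (337 ± 41.7 in PA2x and 105 ± 19.5 normalised reads in PA1x roots, log2 fold change 1.67, SE 0.20, adjusted p = 2.44e-05), PAL4 2.89 times (1.52, SE 0.15, adjusted p = 7.23e-06) and PAL6 2.62 times (1.36, SE 0.15, adjusted p = 1.12e-05). PAL7 was 2.34 times and PAL2 1.75 times as high (adjusted p = 0.0166 and 0.00426). The difference was -0.06 for PAL1 (95% interval -0.37 to 0.24) and -0.19 for PAL5 (-0.54 to 0.16). Groups did not overlap for 6 members, PAL5 among them, against 28.2% of tested genes. The call of PAL7 ended when PA2x replicate 1 (adjusted p = 0.0836) or 2 (0.0573) or PA1x replicate 2 (0.0614) or 3 (0.0554) was left out.

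Set against the other compounds, the variable PAL genes were lower after a single piperonylic acid spray. The comparisons that involve PA1x share its libraries. Against ASM, PAL4 was at 0.281 times (log2 fold change -1.83, 95% interval -2.15 to -1.50, adjusted p = 7.83e-07) and PAL3 at 0.277 times (-1.84, adjusted p = 6.17e-06). PAL6 (-1.40), PAL7 (-1.27) and PAL2 (-1.05) passed too (adjusted p = 5.22e-06, 0.00806 and 0.000327), when 15.7% of tested genes passed, 5.35% as higher and 10.4% as lower. Groups did not overlap for 5 members, against 34.9% of tested genes. Against BABA the log2 fold changes were -1.45 for PAL3, -1.37 for PAL4, -1.21 for PAL6, -0.99 for PAL7 and -0.80 for PAL2 (adjusted p = 0.000104, 2.34e-05, 4.04e-05, 0.0491 and 0.00469), when 9.75% of tested genes passed, 2.14% as higher and 7.61% as lower. Groups did not overlap for 6 members, PAL1 among them as higher in PA1x, against 27.8% of tested genes. The call of PAL7 against BABA ended when any 1 PA1x replicate or BABA replicate 1 or 2 was left out (adjusted p 0.102 to 0.245). It also ended when PA2x replicate 1 or 2, ASM replicate 1 or 2 or mock replicate 1 was left out (0.0523 to 0.0651) and when no filter was set (0.0672). PAL1 and PAL5 did not pass in either comparison, with log2 fold changes of 0.06 and 0.27 against ASM and 0.14 and 0.14 against BABA.

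No member passed with limma, edgeR or DESeq2 among the 3 groups in which the variable PAL genes stood high. At an unadjusted p under 0.05 limma gave 1 of 7 for ASM against BABA, 0 for PA2x against ASM and 0 for PA2x against BABA. Over the 18316 tested genes limma gave 1968, 2176 and 1312 at that threshold, in the same order. Of all tested genes 0.3% passed for ASM against BABA, 0.213% as higher and 0.0874% as lower. These 55 genes (39 higher, 16 lower) became 267 without ASM replicate 1, with the balance turned to 105 higher and 162 lower. They became 12 and 7 without ASM replicate 2 or 3, 24 and 18 without BABA replicate 1 or 2 and 88 without mock replicate 2. For PA2x against ASM 1.44% passed, 0.497% as higher and 0.945% as lower. The 91 higher and 173 lower genes became 157 higher and 124 lower without ASM replicate 1, and their total of 264 became 131 and 123 without PA2x replicate 1 or 2 and 139 and 107 without ASM replicate 2 or 3. For PA2x against BABA 0% passed, and 7 genes did without PA2x replicate 3, 4 without ASM replicate 1 and 1 without BABA replicate 3. Groups did not overlap for 1, 1 and 0 members in the 3 comparisons, against 13.3%, 14.6% and 10.5% of tested genes. For PA2x against BABA edgeR passed 0 and DESeq2 21 genes after adjustment. PAL4, the member with the unadjusted p under 0.05, was at 5135 ± 582 normalised reads in ASM and 3778 ± 693 in BABA roots (log2 fold change 0.45, 95% interval 0.13 to 0.78, adjusted p = 0.268). For PA2x against ASM its interval was -0.63 to 0.02 and for PA2x against BABA -0.18 to 0.47, so these libraries do not show that the groups are alike.

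**Figure D3:**
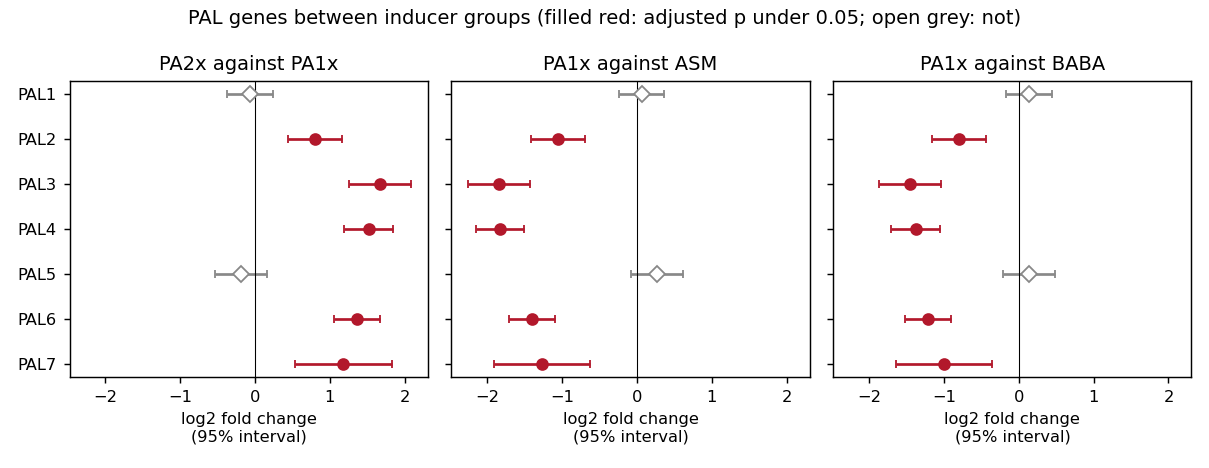
Log2 fold changes with 95% intervals of the 7 PAL genes for PA2x against PA1x, PA1x against ASM and PA1x against BABA; filled red circles have an adjusted p under 0.05 and open grey diamonds do not. The 5 variable PAL genes lie above 0 in the first panel and below 0 in the other panels, and the intervals of PAL1 and PAL5 include 0.

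Within groups PAL2, PAL3, PAL4 and PAL7 deviated together and PAL6 less closely with them. Over the 15 libraries Pearson's r of log2 levels was 0.78 to 0.99 for the 10 pairs among them, which includes the group differences just given. With each group's mean removed, r was 0.20 to 0.95 with a median of 0.84. The 4 pairs that include PAL6 were the loosest in these deviations, at 0.20 to 0.46, and PAL2 with PAL4 the tightest at 0.95. PAL5 ran the other way in its deviations, with r of -0.79 to -0.17 against the variable PAL genes, and PAL1 had r of -0.20 to 0.02 with them. For PAL2, PAL3, PAL4 and PAL7 the libraries numbered 3 were the lowest of their group in PA2x, BABA and mock and the highest in ASM. Over all genes averaging 5 or more, the deviations of the libraries numbered 3 in PA2x, PA1x, BABA and mock correlated at 0.23 to 0.40 with each other and at -0.34 to -0.25 with ASM replicate 3. With ASM replicate 1 those libraries correlated at 0.23 to 0.32. The part of this in the within-group likeness was not tested. The points share libraries and depth. The mean deviation of the variable PAL genes had r of -0.31 with that of log2 read totals, and the part of depth in these likenesses was not tested.

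**Figure D4:**
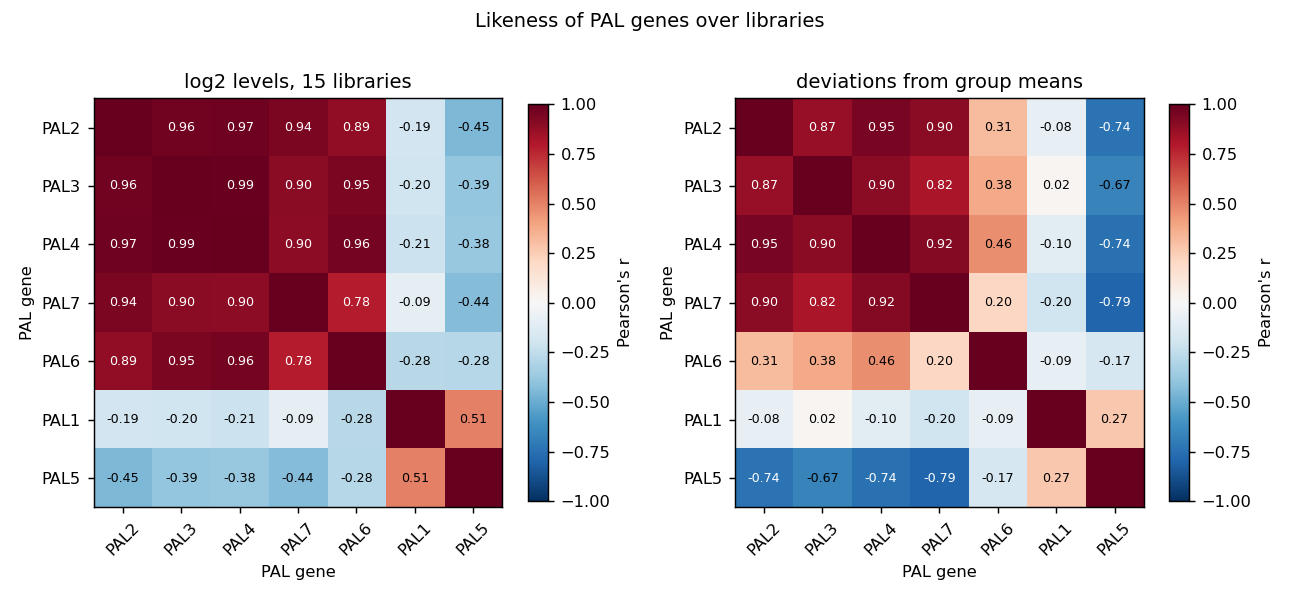
Pearson's r between PAL genes over 15 libraries, for log2 levels and for deviations from group means, with r printed in each cell. PAL2, PAL3, PAL4 and PAL7 have r of 0.82 or more with each other in both panels, and PAL5 has negative r with them.

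Neighbouring members did not all share a pattern. In the order of the table PAL1 to PAL4 were separated by a single other row, with at most 1.31 normalised reads in any library, and yet PAL1 was nearly level while its neighbours PAL2, PAL3 and PAL4 varied. PAL5 and PAL6 likewise had 1 row between them, with a mean of 16.0 normalised reads, and had r of -0.28 with each other. PAL6 and PAL7, on chromosomes 4 and 5, were nearest in log2 levels to PAL4 (r = 0.96) and PAL2 (r = 0.94) on chromosome 2. The r values of log2 levels include the group differences. With each group's mean removed, r was 0.46 for PAL6 with PAL4, 0.90 for PAL7 with PAL2 and 0.92 for PAL7 with PAL4. These are descriptions of 7 genes.

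Likeness to genes outside the family was measured over 14036 genes averaging 20 normalised reads or more, as Pearson's r of log2 levels over the 15 libraries. The gene outside the family nearest to PAL4 was Os01g0246700 (r = 0.99), to PAL3 Os09g0543900 (0.99), to PAL2 Os01g0138800 (0.99), to PAL6 Os01g0880200 (0.97), to PAL7 Os12g0244100 (0.96), to PAL5 Os01g0216000 (0.93) and to PAL1 Os08g0428400 (0.78). The files do not pair these identifiers with names. For PAL3 and PAL4, 1 and 3 genes of the table were closer to them than they were to each other (r = 0.99), whereas 267 genes were closer to PAL1 than its nearest family member PAL5 (r = 0.51). As many as 1161 genes were closer to PAL5 than its nearest family member, PAL1. For PAL2, PAL6 and PAL7 the numbers were 10, 20 and 15.

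The other phenylpropanoid genes were followed in a list of 22, of which 19 could be tested: C4H genes, 4CL genes, 9 genes of the lignin branch and 4 of the flavonoid branch. Their names come from general knowledge paired with the identifiers. Between 2 sprays and 1 spray of piperonylic acid 5 of the 19 were higher in PA2x and 1 lower, when 8.31% of all tested genes passed as higher and 2.96% as lower, with a median log2 fold change of 0.09 beside -0.021 over all tested genes. The lower gene was HCT1 (Os04g0500700, a hydroxycinnamoyl transferase gene of the lignin branch; -0.40, adjusted p = 0.0181), named after its value was seen, and its call ended in 3 of 24 alternatives (adjusted p up to 0.0946). Against ASM 7 were lower in PA1x and none higher, and against BABA 4 lower and none higher, when 10.4% and 7.61% of all tested genes passed as lower (medians -0.34 and -0.17, beside 0.024 and 0.03). Against mock 2 were higher with ASM and 2 lower in PA1x, when 3.28% of all tested genes passed as higher and 3.13% as lower. With PA2x and BABA limma passed 0 of 19 against mock, edgeR 0 in both and DESeq2 1 and 0. As 0.928% and 0.251% of all tested genes passed there with limma, these counts of 0 say nothing particular about the list. At an unadjusted p under 0.05 limma gave 4 and 2 of the 19, beside 2157 and 1893 of the 18316 genes. The list passed 0 of 19 for ASM against BABA and for PA2x against BABA with all 3 tools, beside 0.3% and 0% of all tested genes with limma. Limma gave 1 and 1 of the 19 there at an unadjusted p under 0.05, beside 1968 and 1312 of the 18316 genes. For PA2x against ASM 1 of 19 passed, as lower, beside 1.44% of all tested genes.

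The C4H gene C4H4 (Os02g0467600), for the step after PAL, had 1212 ± 400.1 normalised reads in PA2x, 258 ± 24.97 in PA1x, 1041 ± 360.3 in ASM, 831 ± 344 in BABA and 609.98 ± 271 in mock roots. It was 4.69 times as high in PA2x as in PA1x (log2 fold change 2.17, SE 0.37, adjusted p = 0.000791), and lower in PA1x than in ASM and BABA (-1.95 and -1.58, adjusted p = 0.00141 and 0.0103), the call against BABA being lost without BABA replicate 1 or 2 (adjusted p up to 0.0649). Against mock it did not pass in PA2x (1.03, adjusted p = 0.247), PA1x (-1.14, adjusted p = 0.135), ASM (0.81, adjusted p = 0.278) or BABA (0.44, adjusted p = 0.734). C4H1 (Os05g0320700) averaged 1872 ± 651 normalised reads in PA2x, 1511 ± 189 in PA1x, 2269 ± 324 in ASM, 2025 ± 587 in BABA and 1798 ± 640.1 in mock roots and passed in no comparison. C4H3 (Os02g0467000) was near the limit of detection, at 14.9 ± 1.86 in PA2x, 1.87 ± 1.21 in PA1x, 12.6 ± 3.49 in ASM, 8.68 ± 4.73 in BABA and 8.03 ± 2.82 in mock roots. It was higher in PA2x than in PA1x (adjusted p = 0.000777), and lower in PA1x than in ASM (0.00139), BABA (0.0184) and mock (0.0404). The call against mock was lost in 12 of 22 alternatives, edgeR and DESeq2 among them (adjusted p up to 0.201), and that against BABA in 5 of 23 (up to 0.101). C4H2 (Os01g0820000) had no read in any library, which allows up to 3 reads per library.

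**Figure D5:**
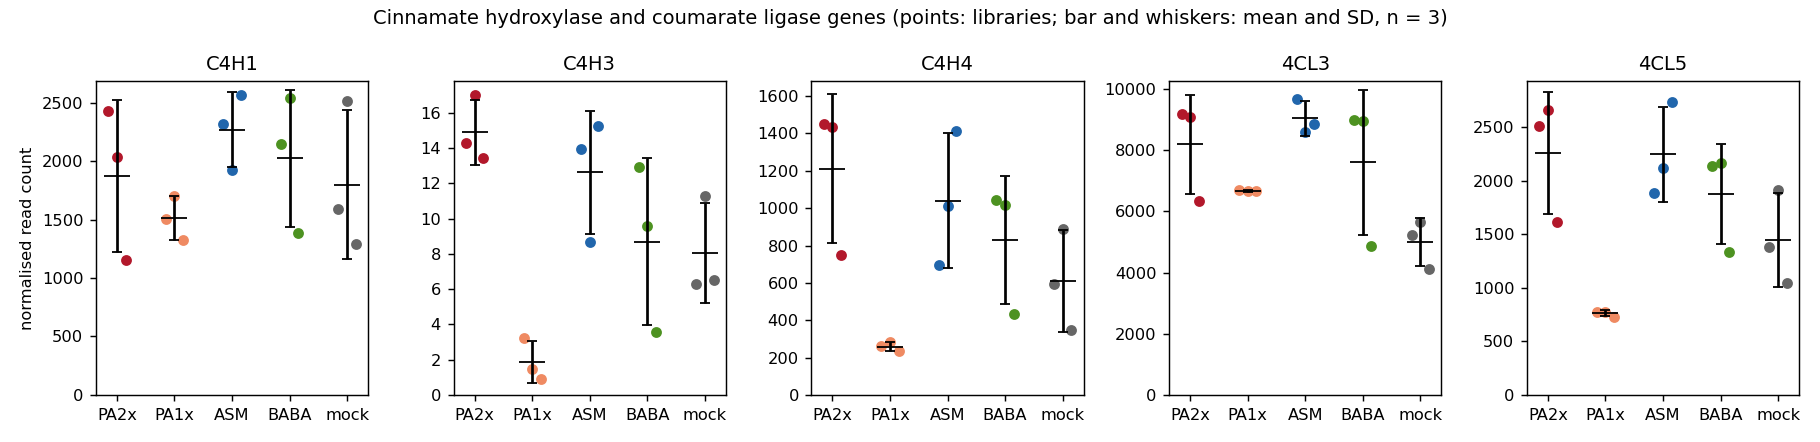
Normalised read counts (linear axes from 0) of C4H1, C4H3, C4H4, 4CL3 and 4CL5 in PA2x, PA1x, ASM, BABA and mock roots, with 3 libraries per group as points and mean and SD as bar and whiskers. C4H1, C4H3, C4H4 and 4CL5 have their lowest mean in PA1x, with C4H1 libraries overlapping those of mock. The 4CL5 mean is 762 in PA1x, against 1449 in mock. The lowest 4CL3 mean is in mock.

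Of the ligase genes, 4CL5 (Os08g0448000) was nearest in pattern to PAL3, PAL4 and PAL6 within the list (r = 0.96, 0.96 and 0.93 over 15 libraries). It averaged 2259 ± 567 normalised reads in PA2x, 762 ± 26.8 in PA1x, 2247 ± 441 in ASM, 1879 ± 468 in BABA and 1449 ± 437 in mock roots. PA2x was 2.96 times PA1x (adjusted p = 0.00029), and PA1x passed as lower than ASM (adjusted p = 0.000198), BABA (0.00166) and mock (log2 fold change -0.88, adjusted p = 0.0484), the last being lost in 11 of 24 alternatives (adjusted p up to 0.251). 4CL3 (Os02g0177600), the ligase gene with the most reads, averaged 9037 ± 574 in ASM and 4998 ± 798 in mock roots (log2 fold change 0.87, adjusted p = 0.0263), and its call ended when any 1 ASM replicate or mock replicate 1 or 3 was left out (adjusted p up to 0.117). Its PA1x mean, 6664 ± 24.6, was above that of mock, unlike those of 4CL5 and the variable PAL genes.

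Of the lignin branch, the hydroxycinnamoyl transferase gene HCT2 (Os02g0611800) was higher in PA2x than in PA1x (log2 fold change 0.65, adjusted p = 0.0121) and lower in PA1x than in BABA (-0.71, adjusted p = 0.00712) and ASM (-0.77, adjusted p = 0.00255). The call against ASM was kept in 24 of 24 alternatives. Without PA2x replicate 1 the difference between PA2x and PA1x had an adjusted p of 0.0686, and without BABA replicate 2 that between PA1x and BABA had 0.0527. The cinnamoyl-CoA reductase gene CCR20 (Os08g0441500), of the last steps to lignin monomers, was higher in ASM than in mock (0.48, adjusted p = 0.00572), a call that was lost when only those libraries were fitted (0.0687). It was the 1 list gene lower in PA2x than in ASM (-0.46, adjusted p = 0.0205), and that call was lost without ASM replicate 1 or 2 or PA2x replicate 2 or 3 and with only those libraries fitted (adjusted p up to 0.184). The caffeoyl-CoA methyltransferase gene CCoAOMT1 (Os08g0498100) was the list gene nearest in pattern to PAL2 (r = 0.97) and PAL7 (0.94), and the cinnamyl alcohol dehydrogenase gene CAD2 (Os02g0187800) to PAL1 (0.58) and PAL5 (0.46). In the flavonoid branch, with 3 of its 4 genes tested, 1 call was made in 10 comparisons. It was for the naringenin methyltransferase gene NOMT (Os12g0240900), which makes the phytoalexin sakuranetin. NOMT passed as lower in PA1x than in ASM, as did 10.4% of all tested genes. It averaged 1.55 normalised reads in PA1x, under the value of 3 reads, and 22.8 in ASM roots (-2.86, adjusted p = 0.0174), and lost its call without ASM replicate 2 or 3 or PA1x replicate 1 or 3 (adjusted p up to 0.103).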

How the data were processed

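The authors deposited a normalised signal per gene, which the values show to be whole read numbers over 1 size factor in each library. The submitters' processing notes list DESeq2, STAR 2.6.1d, Trimmomatic 0.38 and FastQC 0.11.8. Libraries were made with a QuantSeq 3′ kit from 2 µg of RNA, per the labels' protocols. Build, annotation and strand setting: not given in the sources used here. Reads of antisense or overlapping genes may thus be mixed. The step between low values gave back whole reads (100% of values above 0 whole within 0.1 of a read; in ASM replicate 1 the step lies close to 1). Size factors ran from 0.62 to 1.53. Replicate pairs differed by more than sampling noise (3.71 to 29.1 chi-square units per degree of freedom). A count of 0 allows up to 3 reads per library, for counting error only.

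Comparisons used limma 3.58.1 (trend; R 4.3.3), two-sided, on log2(value + 1) of the 18316 genes averaging 5 or more. A single fit of the 15 libraries had a term for group and no other, and gave 10 comparisons and an F test (Benjamini-Hochberg over all genes, 0.05). P-values measure the spread between these pools. The fit was also run on simulated counts with independent libraries and the same spread set for every gene. Those counts lack the deviations that libraries share here, so the run does not show how the fit behaves on these data. Alternatives were other pseudocounts, filters and scaling (TMM), pairwise fits, a replicate block, edgeR 4.0.16 and DESeq2 1.42.0 on recovered reads, and each library left out. The members and lists were chosen with earlier results of these data known. All 7 PAL genes are named, with up to 4 called list genes per comparison, every C4H gene and the nearest genes by r. The RefSeq table (ASM3414082v1) held 0 of the PAL identifiers. Sequences were not analysed here.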

Additional observations from a re-analysis of the deposited data

Results flagged for a closer look

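The effects of piperonylic acid against mock differed between 2 sprays and 1 spray for 5 PAL genes (limma, adjusted over all genes). In the single fit mock drops out of this difference, so it is the comparison of PA2x with PA1x given above and no further test. The difference PA2x minus PA1x in log2 fold change was 1.67 for PAL3 (effects of 0.84 in PA2x and -0.84 in PA1x, adjusted p = 2.44e-05) and 1.52 for PAL4 (0.73 in PA2x and -0.79 in PA1x, adjusted p = 7.23e-06). It was 1.36 for PAL6 (0.61 and -0.75 in PA2x and PA1x, adjusted p = 1.12e-05), 1.18 for PAL7 (0.92 and -0.26 in PA2x and PA1x, adjusted p = 0.0166) and 0.80 for PAL2 (0.40 and -0.40 in PA2x and PA1x, adjusted p = 0.00426). All 3 PA2x libraries lay above all 3 PA1x libraries in each of these genes, which were picked by their call in this comparison. Over all tested genes 11.3% passed there and 28.2% had groups that did not overlap. Against mock itself only PAL4 passed in PA2x, and only PAL3, PAL4 and PAL6 passed in PA1x, beside 0.928% and 3.53% of all tested genes. The PA2x plants had no mock group with their own spray schedule.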

How the results depend on the processing

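Of the 70 log2 fold changes, pseudocounts of 0.5 and 5 and a filter at a mean of 20 changed no direction and no call. The count of PAL genes passing stayed at 4 or 5 over the 5 groups, for PA2x against PA1x and for PA1x against BABA and at 5 for PA1x against ASM, stayed at 0 for ASM against BABA, PA2x against ASM and PA2x against BABA, and was 2 or 3 for PA1x against mock. For PA2x against mock the count of 1 became 0 without a filter on low values, where more genes are tested, 0 with only the 6 libraries compared, 3 with DESeq2 (PAL3, PAL4 and PAL6), and 0 to 3 with a library left out. For ASM against mock the count of 4 became 2 with only the 6 libraries compared, 5 with DESeq2 (PAL7 added), and 2 to 5 with a library left out. For BABA against mock the count of 0 became 1 with DESeq2 (PAL4), and 0 to 1 with a library left out. The causes were not tested. With the replicate block the count for PA2x against mock was 2, PAL3 being added (adjusted p = 0.0341), and no other call changed. The labels do not say that a number marks a shared batch, and not every same-numbered pair had deviations correlated above 0.1 (9 of 30 did, r -0.34 to 0.40), so the numbers were not taken as pairs. Of those 9, 6 were all pairs among the libraries numbered 3 of PA2x, PA1x, BABA and mock. The other 3 were mock replicate 2 with its namesakes in PA2x, PA1x and BABA. Pairs with different numbers were above 0.1 in 16 of 60 cases (r -0.37 to 0.33). Among these, ASM replicate 1 had r of 0.23 to 0.32 with the libraries numbered 3 of PA2x, PA1x, BABA and mock, so the likeness did not follow the numbers alone. A shared source of those libraries was not tested. Over all tested genes the calls became 10 (46 in the reported fit) for BABA against mock, 411 (830) for ASM against mock, 23 (170) for PA2x against mock, 20 (55) for ASM against BABA, 59 (264) for PA2x against ASM and 1 (0) for PA2x against BABA with only the 6 libraries compared. With DESeq2 they were 202 for BABA against mock, 1008 for ASM against mock, 372 for PA2x against mock, 167 for ASM against BABA and 21 for PA2x against BABA. For BABA against mock they were 89 with TMM scaling and 86 with the filter at 20.

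Signs turned only for values that did not pass. For PAL2 in PA2x against BABA (0.0029) the value was -0.0086 with TMM scaling, -0.019 with edgeR, -0.0073 with DESeq2 and -0.16 to 0.092 with a library left out. With a library left out PA2x against BABA ran from -0.014 to 0.27 for PAL4, -0.13 to 0.032 for PAL5 and -0.12 to 0.46 for PAL7. PA2x against ASM ran from -0.034 to 0.042 for PAL1, -0.069 to 0.20 for PAL5, -0.13 to 0.080 for PAL6 and -0.25 to 0.12 for PAL7. ASM against BABA ran from -0.25 to 0.017 for PAL5 and -0.042 to 0.55 for PAL7, and ASM against mock from -0.033 to 0.33 for PAL5. PAL6 and PAL7, the PAL genes with the fewest reads, carry the largest counting error.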
